A study of Danio rerio with 6 samples.

Results

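A set of 77 genes was followed that were abundant in wild-type larvae and stood moderately higher in *fdx1b*-/- larvae, of 31388 genes with counts. The members were chosen by their values in the very comparison described here. A gene entered when its mean over the 3 wild-type sibling libraries was at least 50 CPM (counts per 1000000, each count scaled to the total of its library), when all 3 *fdx1b*-/- values lay above all 3 sibling values, and when the log2 ratio of the group means, with 0.5 CPM added to each, was at least 0.3 and below 0.7. Genes of the glutathione transferases (names starting with gst or mgst), of the UDP glucuronosyltransferases (ugt), and *fth1a*, *hbbe2*, *ambp*, *tktb* and *odc1* were left out by name. Because the rule used these libraries, the direction and size of each member are given as a description, with no test.

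The 6 libraries came from total RNA of whole zebrafish larvae, depleted of ribosomal RNA, at 5 days post fertilisation (120 hpf) and 3 h after lights on (ZT03). The groups were *fdx1b*-/- mutants and their wild-type siblings, 3 libraries each, every one made from a pool of 20 larvae. The count columns of all 6 carry the mark CTR. The study uses that mark for larvae without dexamethasone, and in some figures for the vehicle control. Whether these pools received vehicle is not stated in the sources used here. The mutants were recognised by their impaired visual background adaptation, so a larva's pigment response stands behind its group. The labels do not say whether the replicates came from separate clutches, and the spread between them may be partly technical. Values of *fdx1b* itself were not used here, so no check of the labels against the mutated gene was made.

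Ferredoxin 1b passes electrons to the mitochondrial cytochromes P450 of steroid synthesis, and without it larvae lack cortisol, the main glucocorticoid of fish. Glucocorticoids act through a nuclear receptor in nearly every tissue and are known to set the output of plasma proteins by the liver, the handling of lipids and amino acids, and the balance of protein synthesis and breakdown in muscle. At 5 days, a zebrafish larva has working swimming muscle, a liver that secretes apolipoproteins and complement, a gut lined by absorptive cells, and a skin built on keratins.

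The members fell into groups by what their products do. These groups were assigned after the members were known and carry no test: 9 genes of muscle, 12 of plasma proteins, 7 of lipid handling, 4 of the lysosome, 8 of epithelia and mucus, 3 of the extracellular matrix, 3 of chromatin, 6 of translation, cytoskeleton and cycle control, 12 of metabolism and transport, and 13 others. The median log2 ratio of the 77 genes was 0.39, which corresponds to 31.1% more CPM in the mutants, and single genes ranged from 23.4% to 57.4% more. The same median over the other 3504 genes at or above 50 CPM was -0.0077. The ratio was below 0.4 for 44 members, between 0.4 and 0.5 for 23 and at least 0.5 for 10, so the set crowds towards the lower bound of the rule.

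**Figure D1:**
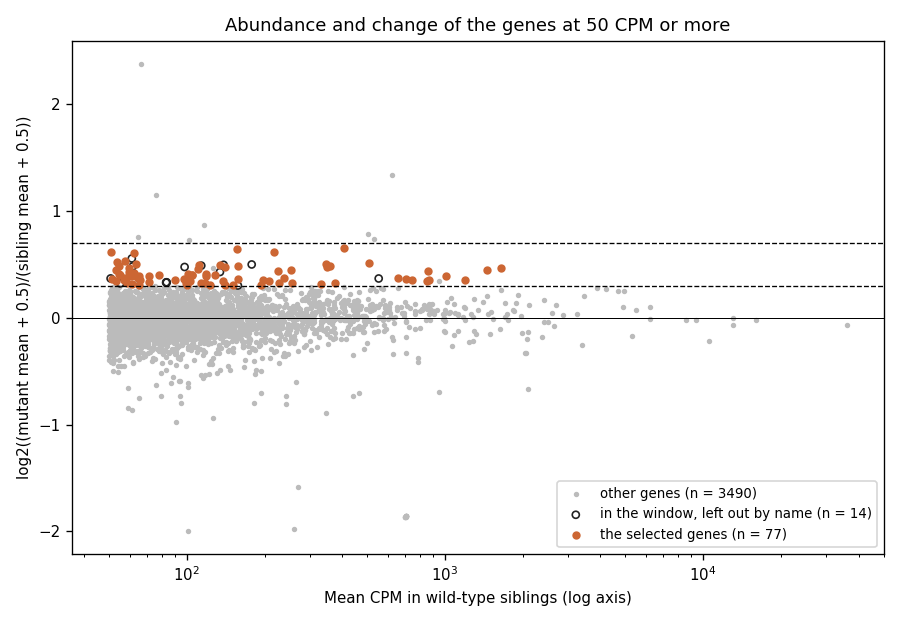
Each point is a gene with a mean of at least 50 CPM in wild-type siblings, with that mean on a log axis against the log2 ratio of the *fdx1b*-/- mean over the sibling mean (0.5 CPM added to both). The 77 selected genes lie between the dashed lines at 0.3 and 0.7, and the 14 open circles are genes in the window that were left out by name.

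The rule took a small part of a broad field. Of the 3581 genes with a sibling mean of at least 50 CPM, 647 (18.1%) had every *fdx1b*-/- value above every sibling value, and 643 (18%) had every mutant value below. Among the 647, 548 had a ratio under 0.3, 91 lay in the window and 8 were at 0.7 or more. Leaving out 14 of the 91 by name gave the 77 members, 2.15% of the abundant genes. In the mirror window on the other side, from -0.3 to -0.7, there were 113 genes without overlap, against the 91 on the upper side before names were left out. In a fit across all 26544 tested genes with edgeR's quasi-likelihood test, 0.618% of genes were called higher and 0.497% lower at an adjusted p of at most 0.01 and a log2 fold change of at least 0.25 in size. Of the members, 33 were called higher, 0 lower and 44 neither, against 1.42% called higher and 1.26% lower among all genes at or above 50 CPM. Since the members were picked on the same contrast, nothing is read from that count. It depended on single libraries: leaving out *fdx1b*-/- replicate 1, 2 or 3 left 8, 8 and 6 members called, leaving out sibling replicate 1 left 5, and leaving out sibling replicate 2 or 3 left 51 and 49.

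The members together took 1.99%, 1.75% and 2.02% of all counts in sibling replicates 1, 2 and 3 and 2.57%, 2.61% and 2.48% in *fdx1b*-/- replicates 1, 2 and 3. Totals per library ran from 18247332 counts in sibling replicate 2 to 49908095 in sibling replicate 1, and the lowest count of any member in any library was 836. Relative to its sibling mean, the median member stood at log2 0.03, -0.10 and 0.08 in the sibling libraries and at 0.40, 0.41 and 0.37 in the mutant libraries. The 3 mutant libraries therefore sit close together, and sibling replicate 2, the shallowest library, is the one that stands apart. It was the lowest sibling for 62 of the 77 members (80.5%), and for 50.03% of the other abundant genes. Without it, 55 of the 77 kept a ratio of at least 0.3. The median ratio over the 77 was then 0.34, with a range from 0.15 to 0.59. No ratio could fall to 0 or below, since the rule had put every mutant value above every sibling value. The rule had used these same values, so nothing is read from how many members of any group stayed at 0.3 or above. The ratio fell by more than 1.5 times for 4 members, *hmgn2* (0.31 to 0.21), *tmsb1* (0.33 to 0.21), *hrsp12* (0.33 to 0.22) and the unnamed short gene ENSDARG00000083937 (0.32 to 0.15). Leaving out any other single library moved no member's ratio that far.

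Exon length moved with the positions of sibling replicates 2 and 3, in opposite directions. The members' exons had a median length of 2334 bases, against 3735.5 bases in the other abundant genes. Among those other genes, the median deviation of sibling replicate 2 from the sibling mean was log2 -0.11 for 428 genes under 1500 bases and 0.05 for 1222 genes of 5000 bases or more. Sibling replicate 3 stood at 0.09 in the short class and -0.07 in the long one, and sibling replicate 1 at 0.02 and 0.01. The *fdx1b*-/- replicates 1, 2 and 3 stood at 0.05, 0.06 and 0.09 in the short class. In the long class they stood at -0.07, -0.05 and -0.05. The median ratio between genotypes over the same genes ran from 0.06 in the short class to -0.05 in the long one. The members' median ratio was 0.36 for the 18 under 1500 bases, 0.40 for the 32 from 1500 to under 3000 bases, 0.36 for the 13 from 3000 to under 5000 bases and 0.35 for the 14 of 5000 bases or more. The rule held every member between 0.3 and 0.7, so nothing is read from the likeness of these medians. The part of exon length in the single ratios was not tested. CPM was not divided by exon length, so long genes could pass the abundance minimum at a low level per kilobase. The lowest such level was that of *frem3*, with 9799 bases of exon and 6.10 CPM per kilobase in siblings.

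**Figure D2:**
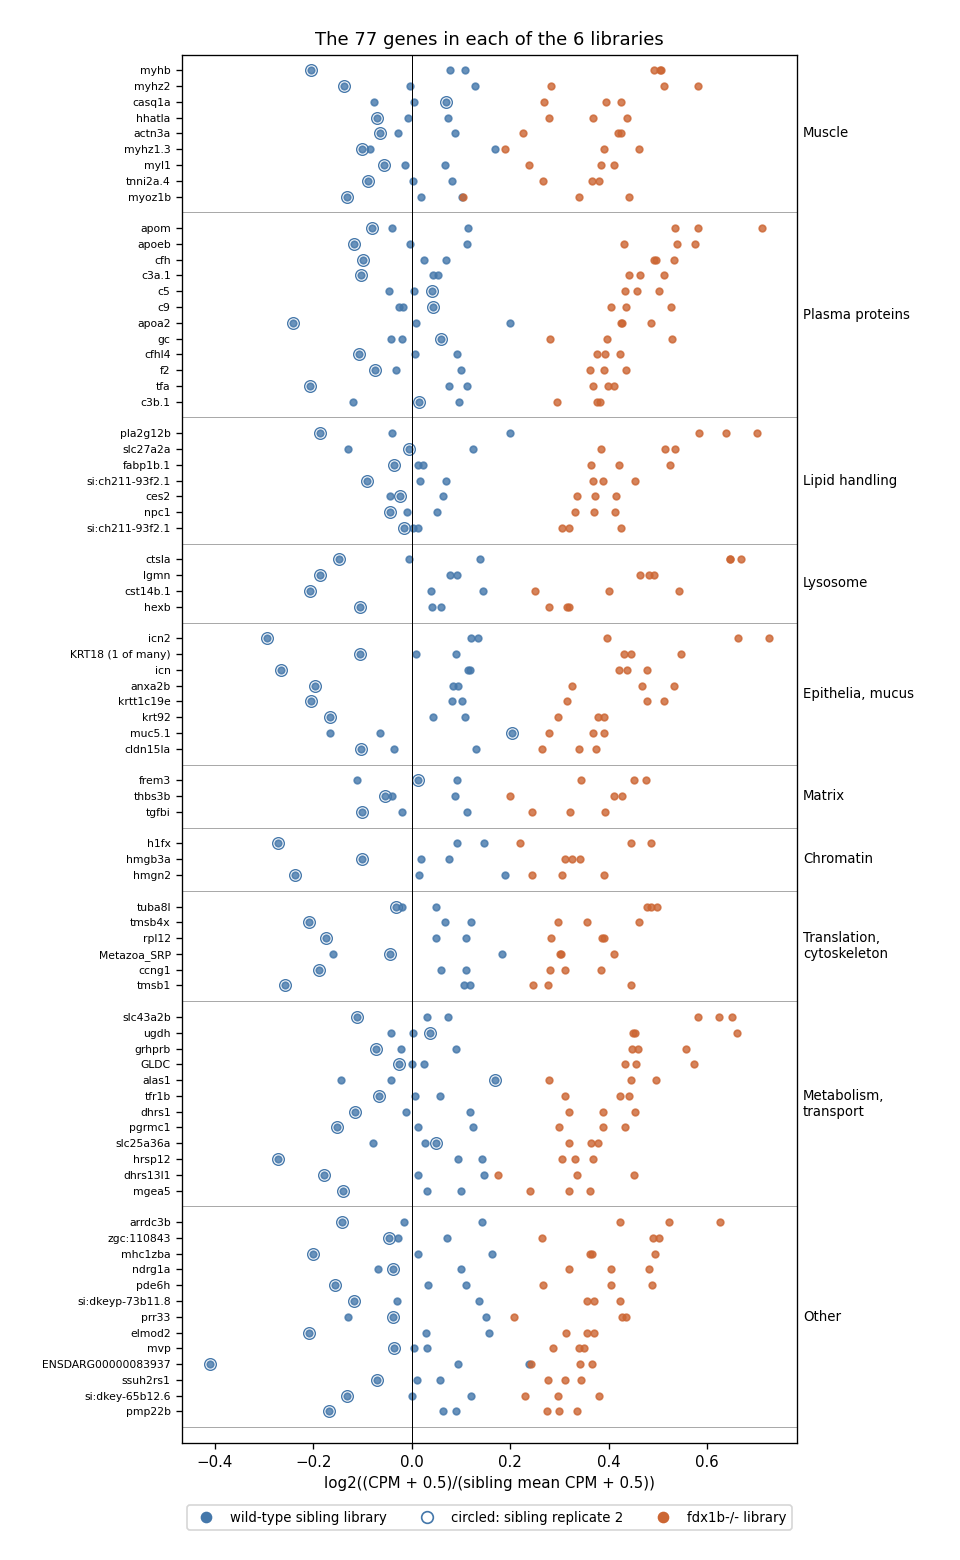
Each row is 1 of the 77 genes and each point 1 library, on the log2 scale relative to the gene's mean in siblings, and open rings mark sibling replicate 2. The 3 *fdx1b*-/- points lie to the right of the 3 sibling points in every row, as the rule required, and the ringed library is the leftmost in 62 rows.

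Plasma proteins, which come mainly from the liver, gave 12 members with a median ratio of 0.45. *apoa2*, an apolipoprotein of high density lipoprotein, measured 1457, 1226 and 1662 CPM in sibling replicates 1, 2 and 3 and 1946, 2027 and 1944 CPM in *fdx1b*-/- replicates 1, 2 and 3. The mutant libraries lay within a narrow band, and the lowest of them was 17.0% above the highest sibling. Means were 1448 ± 218 CPM in siblings and 1973 ± 47.3 CPM in mutants (SD, n = 3 each), a log2 ratio of 0.45 ± 0.13 (SE). Per kilobase of exon it had the highest level of the 77 genes, 1425 CPM per kilobase in siblings. Transferrin, the iron carrier encoded by *tfa*, measured 1063, 875 and 1091 CPM in siblings and 1330.1, 1343 and 1303 CPM in mutants. Again sibling replicate 2 was the low point of its group, and the log2 ratio was 0.39 ± 0.10, or 0.30 without that library.

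*apoeb*, which encodes apolipoprotein E, a ligand for lipoprotein uptake, measured 508, 469 and 550.3 CPM in siblings and 758, 739.6 and 687 CPM in mutants. Its groups were 24.8% apart and its log2 ratio was 0.52 ± 0.08. *apom*, whose product carries sphingosine-1-phosphate on high density lipoprotein, had the largest ratio of the plasma group at 0.61 ± 0.08 and lay just inside the abundance minimum. It measured 49.4, 48.0 and 55.0 CPM in siblings and 76.2, 73.7 and 83.4 CPM in mutants, so that even the lowest mutant was 34.1% above the highest sibling. The vitamin D binding protein *gc* had a ratio of 0.41 ± 0.08.

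The complement cascade and its regulators gave 6 of the plasma members, and prothrombin (*f2*) added a clotting factor. *cfh*, which encodes factor H, the fluid phase inhibitor of the alternative pathway, measured 66.8, 59.4 and 64.8 CPM in siblings and 89.97, 92.3 and 89.8 CPM in mutants. The mutant values were nearly equal, and the log2 ratio was 0.51 ± 0.05. For *c3a.1*, a gene of the central component C3, means were 348 ± 20.8 CPM in siblings and 482 ± 12.09 CPM in mutants. The ratio was 0.46 ± 0.03 for *c5*, which starts the terminal pathway, 0.46 ± 0.04 for *c9*, whose product forms the membrane pore, 0.40 ± 0.06 for the factor H-like *cfhl4*, 0.40 ± 0.06 for *f2* and 0.35 ± 0.07 for another C3 gene, *c3b.1*. Unlike most members, *c5*, *c9* and *gc* had their highest sibling value in sibling replicate 2, the library that was low elsewhere. The 12 plasma genes showed no common order of the mutant libraries: the lowest mutant was replicate 1 for 6, replicate 2 for 2 and replicate 3 for 4. Among siblings, replicate 2 was the lowest for 8 of the 12. Without sibling replicate 2, 11 of the 12 stayed at 0.3 or above.

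The other genes of these pathways were counted in lists that had been drawn up with earlier results of these data known. Members were taken out of every list. Abundant genes with moderate rises are therefore missing from the counts, which lean downward for lists that held members. Over all tested genes the median log2 fold change was -0.0028, the background for the counts above 0 given here. That background was not matched to the exon lengths of any list. The 164 genes called higher by edgeR, 0.618% of those tested, included 33 members, whereas the list counts leave members out. Among 47 further complement and coagulation genes, 40 had a fold change above 0 (median 0.19 on the log2 scale). Of these, 4 were called higher and 0 lower by edgeR (background 0.618% and 0.497% of all tested genes, members included). They were *vtna* (log2 fold change 0.78, SE 0.07, adjusted p = 0.00015), *c3a.6* (0.49, SE 0.05, adjusted p = 0.000327), *c8a* (0.59, SE 0.06, adjusted p = 0.000403) and *vtnb* (0.44, SE 0.06, adjusted p = 0.0014). The vitronectins *vtna* and *vtnb* restrain the terminal pathway, *c8a* is a component of the pore, and *c3a.6* is a further C3 gene at 49.1 CPM, just under the abundance minimum. With each library left out in turn, *vtna*, *c8a* and *c3a.6* kept the call 6 times of 6 and *vtnb* only without sibling replicate 2 or 3. Not every C3 gene stood higher: *c3a.3* measured 142, 141 and 131 CPM in siblings and 134, 128 and 135 CPM in mutants (log2 fold change -0.06, SE 0.06, adjusted p = 0.613).

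Apolipoproteins outside the members went both ways. Of 35 tested, 16 had a fold change above 0 and the median was -0.06, with 1 called higher and 2 lower by edgeR. *apoa1a*, the main protein of high density lipoprotein, measured 584, 569 and 722 CPM in siblings and 1637, 1530 and 1550 CPM in mutants (log2 fold change 1.33, SE 0.09, adjusted p = 1.58e-05), well above the window of the rule. *apoa4b.3* (-0.94, SE 0.11, adjusted p = 0.000803) and an *afp4* gene (-0.65, SE 0.07, adjusted p = 0.000426) were lower. *apoea*, the paralog of *apoeb*, measured 251, 232 and 316 CPM in siblings and 297, 301 and 276 CPM in mutants, and its groups overlapped (log2 fold change 0.13, SE 0.10, adjusted p = 0.524). Leaving out *fdx1b*-/- replicate 3 left 1 of this list called lower, and leaving out sibling replicate 2 gave 2 called higher and 5 lower. Among 16 other plasma carriers 3 were called higher, *agt* (1.299, SE 0.09, adjusted p = 2.85e-05), *ambp* (0.56, SE 0.06, adjusted p = 0.000403) and *tcn2* (0.49, SE 0.07, adjusted p = 0.00268), and 2 lower, *hpx* (-2.15, SE 0.30, adjusted p = 0.00253) and *ahsg1* (-0.60, SE 0.10, adjusted p = 0.00889). Those counts were 2 and 0 without *fdx1b*-/- replicate 2 or 3 or sibling replicate 1, 2 and 1 without *fdx1b*-/- replicate 1, 5 and 3 without sibling replicate 2, and 3 and 1 without sibling replicate 3.

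In whole larvae, more cells of a tissue and more RNA per cell cannot be told apart. The 7 hepatocyte markers that were no members (*fgb*, *fga*, *cp*, *ttr*, *fabp10a*, *serpina1* and *serpina1l*) summed to 838 to 950 CPM in siblings and 918 to 976 CPM in mutants. These sums overlapped between the genotypes, 0 of the 7 markers passed the threshold in edgeR (3 were higher and 0 lower at an unadjusted p under 0.05, and DESeq2 called 2 higher), and their median fold change was 0.12 on the log2 scale. The other 2 of the 9 markers, *tfa* and *apoa2*, were members and so higher by the rule. Leaving them out favours an overlap, so nothing is read from it. The same limit holds for any marker sum below from which members were left out. Over all tested genes, 9.21% were higher and 10.4% lower in edgeR at an unadjusted p under 0.05, and DESeq2 called 1.4% higher and 1.42% lower of the genes to which it gave a p. These shares include the members, which the list and marker counts leave out. Outside the members, 2369 of 26467 tested genes were higher and 2754 lower at that p. Of the same genes, DESeq2 called 365 higher and 445 lower. Those counts outside the members are the background for all such counts given here. The part of liver cell number in the plasma group was not tested.

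**Figure D3:**
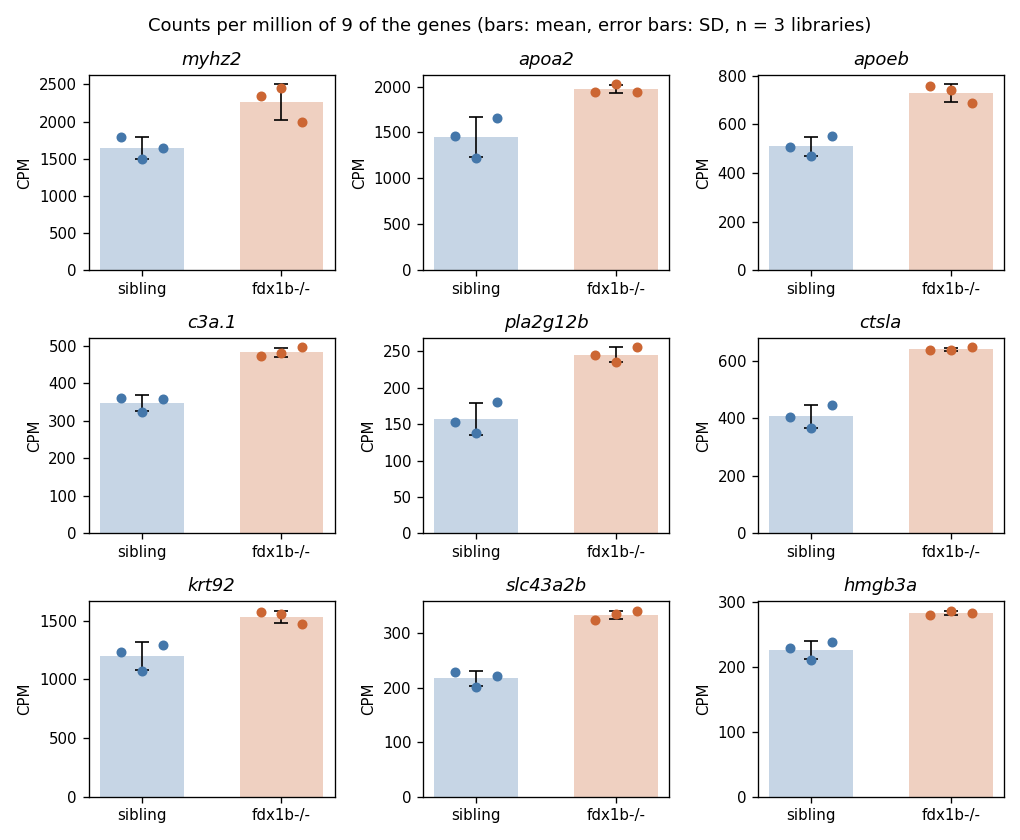
Bars give the mean CPM of 9 of the genes in 3 wild-type sibling and 3 *fdx1b*-/- libraries, with error bars of 1 SD and a point for each library in the order of replicates 1 to 3, on axes that start at 0. The points of *ctsla* in mutants sit between 636 and 647 CPM against 367 to 447 CPM in siblings, while those of *myhz2* in mutants spread from 1998 to 2457 CPM.

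Muscle was the group with the largest share of the counts: 9 genes took 0.526%, 0.453% and 0.485% of all counts in siblings and 0.668%, 0.675% and 0.588% in mutants. All but *hhatla* encode parts of the fast sarcomere or of its calcium store. Their ratios were modest, from 0.30 to 0.50, with a median of 0.36. The fast myosin heavy chain *myhz2* measured 1795, 1494 and 1638 CPM in siblings and 2341, 2457 and 1998 CPM in mutants. *fdx1b*-/- replicate 3 was lower than the other two mutant libraries but still above every sibling. Means were 1642 ± 151 and 2265 ± 239 CPM (SD, n = 3 each), a log2 ratio of 0.46 ± 0.12.

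Another myosin heavy chain, *myhz1.3*, measured 835, 692 and 701 CPM in siblings and 1023, 974 and 847 CPM in mutants. Its groups were separated by only 1.44%, between sibling replicate 1 and *fdx1b*-/- replicate 3. *myhb*, also a myosin heavy chain, differed in that all 3 mutants lay close together. It measured 366, 302 and 374 CPM in siblings and 488, 494 and 493 CPM in mutants, with the largest ratio of the muscle group at 0.50 ± 0.10. The fast troponin I gene *tnni2a.4*, an inhibitory subunit of the thin filament, measured 902, 802 and 854 CPM in siblings and 1109.7, 1099.5 and 1026 CPM in mutants. Its ratio of 0.34 ± 0.06 became 0.30 without sibling replicate 2. *casq1a*, which encodes calsequestrin, the calcium buffer of the sarcoplasmic reticulum, measured 92.5, 102 and 97.9 CPM in siblings and 128, 131 and 118 CPM in mutants. Here sibling replicate 2 was the highest sibling, and it was the only muscle member for which that library was not the lowest.

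The Z-disc genes *actn3a* (alpha-actinin) and *myoz1b* (myozenin), the light chain gene *myl1* and *hhatla* had ratios of 0.36 ± 0.08, 0.30 ± 0.12, 0.35 ± 0.06 and 0.36 ± 0.06. *myoz1b* was the member nearest to the lower ratio bound of the rule and to an overlap of the groups. It measured 132, 112 and 124 CPM in siblings and 155, 167 and 132 CPM in mutants, so *fdx1b*-/- replicate 3 lay only 0.0688% above sibling replicate 1. *fdx1b*-/- replicate 3 was the lowest mutant for 8 of the 9 muscle genes, and sibling replicate 1 the highest sibling for 7. Without sibling replicate 2, 7 of the 9 stayed at a ratio of 0.3 or above, with a median of 0.33.

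Beyond the members, 59 other genes of fast muscle contraction were tested. Of these 41 had a fold change above 0, the median was 0.12, and edgeR called 4 higher and 3 lower. Fast troponin T *tnnt3a* lay just above the window and measured 101, 101 and 104 CPM in siblings and 176, 177 and 155 CPM in mutants (log2 fold change 0.73, SE 0.07, adjusted p = 0.000201). The paralogs of 2 members, *casq1b* (0.39, SE 0.06, adjusted p = 0.00385) and *myoz1a* (0.35, SE 0.05, adjusted p = 0.0052), were called higher too, as was the parvalbumin *pvalb3* (0.74, SE 0.11, adjusted p = 0.00438). The 3 called lower encode enzymes of energy supply in muscle: AMP deaminase *ampd1* (-0.60, SE 0.08, adjusted p = 0.00147), phosphofructokinase *pfkma* (-0.52, adjusted p = 0.000643) and glycogen phosphorylase *pygma* (-0.37, adjusted p = 0.00747). With each library left out in turn, *tnnt3a* and *pfkma* kept the call 6 times of 6. Without *fdx1b*-/- replicate 1, 2 or 3 or sibling replicate 1, *tnnt3a* was the 1 gene still called higher, and 2, 1, 1 and 2 genes were called lower. Without sibling replicate 2, 6 were called higher and 5 lower. Close relatives of members did not all follow: *actn3b* measured 416, 402 and 402 CPM in siblings and 425, 436 and 427 CPM in mutants (log2 fold change 0.08, SE 0.06, adjusted p = 0.508). *myhz1.2* had a ratio of 0.35 but was left out by the rule because its lowest mutant, 1035 CPM, was below its highest sibling, 1054 CPM.

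The 6 fast muscle markers that were no members (*mylpfa*, *tnnc2*, *ckma*, *pvalb2*, *acta1b* and 1 gene annotated as ACTA1) summed to 10571 to 12147 CPM in siblings and 13227 to 14007 CPM in mutants, without overlap. Of these, 0 passed the threshold in edgeR, 5 were higher at an unadjusted p under 0.05, DESeq2 called 2 higher, and the median was 0.25 on the log2 scale. Markers of some other tissues went the other way. The 8 of exocrine pancreas summed to 7675 to 8952 CPM in siblings and 6645 to 7690 CPM in mutants, with a slight overlap. Their median was -0.28, 6 were lower at an unadjusted p under 0.05, and DESeq2 called 4 lower. The 7 of neurons summed to 995 to 1092 CPM and 910 to 1019 CPM, also with overlap (median -0.20, 4 lower, 0 by DESeq2). The 6 of lens summed to 1324 to 1373 CPM and 1227 to 1246 CPM without overlap (median -0.03, 1 lower). Those of the interrenal gland summed higher in mutants without overlap, though 4 of the 8 were under 1 CPM in siblings. Of these 8, edgeR called 1 higher and 0 lower, 2 were higher at an unadjusted p under 0.05, and DESeq2 called 1 higher. Sums of red cells and of connective tissue overlapped. Among 74 synaptic and neuronal genes 3 had a fold change above 0 and the median was -0.21, with exon length not taken into account. Of these 74, 53 were lower at an unadjusted p under 0.05, and DESeq2 called 0 higher and 14 lower. The part of the shares of tissue RNA in the muscle ratios was not tested.

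Lipid handling held 7 members. Each of these stayed at 0.3 or above without sibling replicate 2, a count drawn from the values the rule used. *pla2g12b*, a secreted member of the phospholipase A2 family known for its part in building lipoproteins, measured 153, 138 and 180.5 CPM in siblings and 245, 236 and 256 CPM in mutants. Its groups were 30.6% apart and its ratio, 0.64 ± 0.12, was the second largest of the 77. *slc27a2a*, a fatty acid transporter and acyl-CoA synthetase, measured 49.7, 54.2 and 59.4 CPM in siblings and 79.0, 71.2 and 78.0 CPM in mutants (ratio 0.48 ± 0.09). The cytosolic fatty acid binding protein gene *fabp1b.1* of the gut measured 227, 219 and 228 CPM in siblings and 323, 289 and 301 CPM in mutants. Its 3 sibling values were nearly equal, and its ratio was 0.44 ± 0.05.

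The carboxylesterases, which split esters in liver and gut, gave 3 loci. *ces2* measured 231, 235 and 249 CPM in siblings and 301, 309 and 318 CPM in mutants (ratio 0.37 ± 0.04). A pair of gene identifiers share the name si:ch211-93f2.1. ENSDARG00000101726, listed as *ces2b* in the reference name table, measured 197, 194 and 198 CPM in siblings and 264, 243 and 245 CPM in mutants. ENSDARG00000104818 measured 130.4, 121 and 135 CPM in siblings and 177, 167 and 169 CPM in mutants. Their ratios were 0.35 ± 0.04 and 0.40 ± 0.05, and *fdx1b*-/- replicate 1 was the highest mutant for both. *npc1*, which exports cholesterol from the lysosome, measured 59.7, 55.8 and 57.2 CPM in siblings and 74.6, 72.6 and 76.8 CPM in mutants (ratio 0.37 ± 0.04). *fdx1b*-/- replicate 2 was the lowest mutant for 6 of the 7 lipid genes, although it was the lowest for only 15 of the 77 members. Of 44 other genes of fatty acid binding and fat oxidation, 32 had a fold change above 0 and the median was 0.09. By edgeR 0 of these were called, 14 were higher and 1 lower at an unadjusted p under 0.05, and DESeq2 called 1 higher. Of 31 other enterocyte brush border genes 15 were above 0, with a median of -0.02. By edgeR 0 were called, 7 were higher and 6 lower at an unadjusted p under 0.05, and DESeq2 called 1 higher and 2 lower. The 6 enterocyte markers that were no members summed to 1774 to 2089 CPM in siblings and 1922 to 1979 CPM in mutants, and these ranges overlapped.

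The lysosome gave 4 members, among them the gene with the largest ratio of all. *ctsla*, a cathepsin L protease, measured 405, 367 and 447 CPM in siblings and 636, 637 and 647 CPM in mutants. The mutant libraries lay closer together than the siblings, and the lowest mutant was 42.3% above the highest sibling. Means were 406 ± 40.1 and 639.9 ± 5.82 CPM (SD, n = 3 each), a log2 ratio of 0.65 ± 0.08. Legumain (*lgmn*), the asparaginyl protease that processes cathepsins, measured 383, 316 and 379 CPM in siblings and 505, 502 and 496 CPM in mutants (ratio 0.48 ± 0.09). *hexb*, a subunit of the hexosaminidases, measured 67.3, 60.7 and 68.1 CPM in siblings and 79.4, 81.6 and 81.4 CPM in mutants (ratio 0.30 ± 0.05). *cst14b.1*, a cystatin, the family that inhibits cathepsins, had a wider spread among mutants. It measured 60.8, 47.6 and 56.5 CPM in siblings and 72.7, 80.3 and 65.4 CPM in mutants (ratio 0.40 ± 0.13). Sibling replicate 2 was the lowest sibling for all 4 genes, and without it the ratios were 0.59, 0.39, 0.31 and 0.25 in the order *ctsla*, *lgmn*, *cst14b.1* and *hexb*. The 4 members in the list of lysosomal enzymes, higher by the rule, are left out of the list counts, which therefore lean downward. Of 34 other lysosomal genes, 31 had a fold change above 0 and the median was 0.13. By edgeR 0 were called higher and 0 lower, 15 were higher and 0 lower at an unadjusted p under 0.05, and DESeq2 called 2 higher.

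Epithelia and mucus made up 8 members. The keratin *krt92* measured 1238, 1069 and 1294 CPM in siblings and 1574, 1559 and 1476 CPM in mutants (ratio 0.36 ± 0.09). *krtt1c19e*, a type I keratin, measured 909, 745 and 922 CPM in siblings and 1224, 1196 and 1068 CPM in mutants (ratio 0.44 ± 0.12). In both genes, *fdx1b*-/- replicate 3 was the lowest mutant and sibling replicate 2 the lowest sibling. A keratin 18 gene (*krt18b* in the reference names) had means of 141 ± 9.50 CPM in siblings and 196 ± 8.62 CPM in mutants and a ratio of 0.48 ± 0.07.

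The ictacalcin genes *icn* and *icn2*, which encode small calcium-binding proteins of the S100 family, are short, with 405 and 431 bases of exon. *icn* measured 276, 211 and 275 CPM in siblings and 340.2, 353 and 344 CPM in mutants (ratio 0.45 ± 0.13). *icn2* measured 67.9, 50.8 and 68.5 CPM in siblings and 99.0, 103 and 82.2 CPM in mutants (ratio 0.60 ± 0.17). In both, sibling replicate 2 lay far under the other two siblings, which nearly coincided, and without it the ratios were 0.33 and 0.47. *muc5.1*, a gel-forming mucin with 16336 bases of exon, showed the opposite order of siblings. It measured 124, 159.7 and 133 CPM in siblings, with replicate 2 the highest, and 168, 179 and 182 CPM in mutants, and the groups were 5.36% apart (ratio 0.35 ± 0.12). *anxa2b*, an annexin that binds membranes with calcium, and *cldn15la*, an intestinal claudin of tight junctions, had ratios of 0.44 ± 0.11 and 0.33 ± 0.08.

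Keratins and envelope genes outside the members were mixed. The 6 members in this list, higher by the rule, are left out of these counts, which therefore lean downward. Of 38 tested, 22 had a fold change above 0 and the median was 0.04, and 0 were called higher and 2 lower. *krt17* measured 282, 259 and 266 CPM in siblings and 84.4, 88.2 and 95.2 CPM in mutants (log2 fold change -1.59, SE 0.07, adjusted p = 9e-07). The gene zgc:111983 (-0.46, SE 0.07, adjusted p = 0.00503) was the other, and it was not called when any of the mutant libraries or sibling replicate 1 was left out. The rule set the direction of the keratin members, so it is not read against that of *krt17*. At an unadjusted p under 0.05, 10 genes of this list were higher and 7 lower, and DESeq2 called 0 and 3. The 5 epidermis markers that were no members summed to 7972 to 8800 CPM in siblings and 7990 to 8620 CPM in mutants, and the ranges overlapped.

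**Figure D4:**
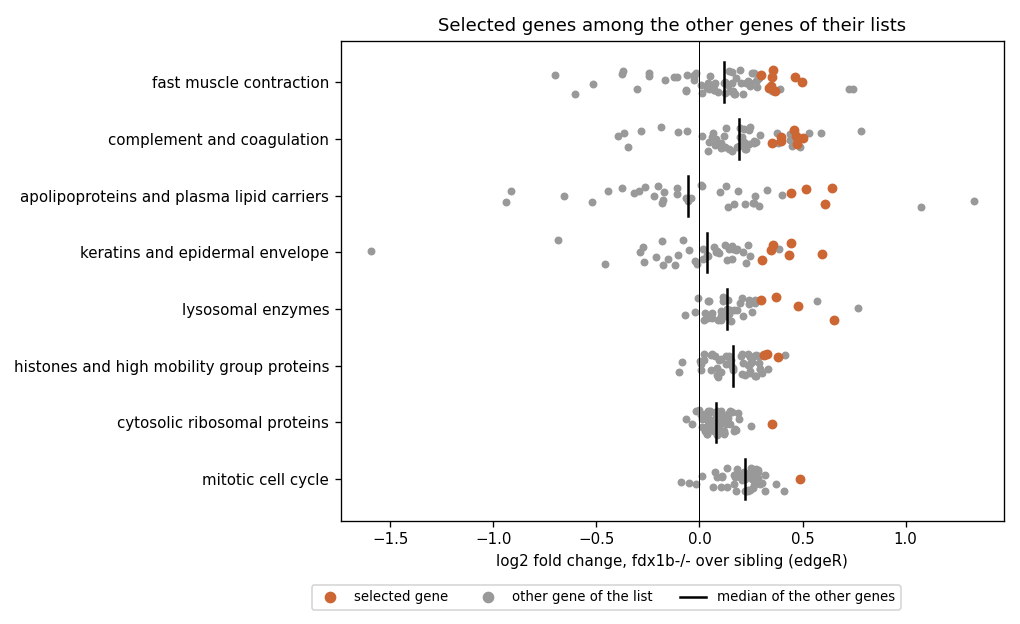
Points give the edgeR log2 fold change of *fdx1b*-/- over sibling for the tested genes of 8 gene lists, with selected genes in orange, other genes in grey and the median of the other genes as a bar. The medians lie between -0.06 for apolipoproteins and 0.22 for the mitotic cell cycle, and the orange points were placed to the right of 0.3 by the rule.

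Among genes of the extracellular matrix, 3 were members. *tgfbi*, a secreted adhesion protein, measured 251, 237 and 275 CPM in siblings and 301, 334 and 318 CPM in mutants (ratio 0.32 ± 0.08). *frem3*, of a family of basement membrane proteins, measured 63.7, 60.3 and 55.3 CPM in siblings and 81.9, 83.3 and 75.9 CPM in mutants (ratio 0.42 ± 0.07). *thbs3b*, a thrombospondin, measured 60.7, 54.9 and 55.4 CPM in siblings and 76.8, 75.9 and 65.5 CPM in mutants (ratio 0.35 ± 0.09). *fdx1b*-/- replicate 3 was the low mutant for *frem3* and *thbs3b*, and *fdx1b*-/- replicate 1 for *tgfbi*. Of 65 other collagen and matrix genes 46 had a fold change above 0, with a median of 0.08, 0 called higher and 1 lower. That gene was *serpinh1b*, the collagen chaperone (-0.52, SE 0.07, adjusted p = 0.00201), and it was not called when any of the mutant libraries or sibling replicate 1 was left out. At an unadjusted p under 0.05, 22 were higher and 4 lower, and DESeq2 called 5 and 1.

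The chromatin members bind the nucleosome or linker DNA. *hmgn2*, a nucleosome-binding protein gene, measured 334, 280.2 and 377 CPM in siblings and 391, 433 and 408 CPM in mutants (ratio 0.31 ± 0.13). *hmgb3a*, of the high mobility group box family, measured 229.7, 211 and 239 CPM in siblings and 281, 287 and 284 CPM in mutants (ratio 0.33 ± 0.05). *H1fx*, a linker histone, measured 72.2, 53.9 and 69.5 CPM in siblings and 76.0, 89.0 and 91.5 CPM in mutants (ratio 0.39 ± 0.15). All 3 had sibling replicate 2 as their lowest sibling and *fdx1b*-/- replicate 1 as their lowest mutant. Without sibling replicate 2, 0 of the 3 stayed at 0.3, and the ratios were 0.21, 0.28 and 0.27. Other histone and high mobility group genes had fold changes above 0 in 46 of 48, with a median of 0.16. Exon length was not taken into account in these counts. By edgeR 0 were called, 28 were higher and 0 lower at an unadjusted p under 0.05, and DESeq2 called 5 higher.

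Translation, cytoskeleton and cycle control gave 6 members. *tuba8l*, an alpha-tubulin, had the smallest SE of its ratio of the 77. It measured 156, 155 and 164 CPM in siblings and 221, 223 and 220.4 CPM in mutants, with groups 34.7% apart and a ratio of 0.49 ± 0.03. *rpl12*, a protein of the large ribosomal subunit, measured 895, 766 and 933 CPM in siblings and 1051, 1132 and 1129 CPM in mutants (ratio 0.35 ± 0.09). Of the other 81 cytosolic ribosomal protein genes 77 had a fold change above 0, but their median was 0.08. Exon length was not taken into account there, and other abundant genes under 1500 bases had a median ratio of 0.06. By edgeR and by DESeq2 0 were called, 3 were higher at an unadjusted p under 0.05, and *rpl12* was the 1 ribosomal protein gene that met the rule. The thymosins *tmsb4x* and *tmsb1* hold actin monomers in reserve. *tmsb4x* measured 688, 567 and 713 CPM in siblings and 806, 903 and 839 CPM in mutants (ratio 0.37 ± 0.11), and *tmsb1* measured 127, 97.9 and 126 CPM in siblings and 142, 159.7 and 139 CPM in mutants (ratio 0.33 ± 0.14). Both had their highest mutant in replicate 2. Of 62 other actin cytoskeleton genes 50 had a fold change above 0, the median was 0.13, and edgeR called 1 higher, *pls1* (0.38, SE 0.06, adjusted p = 0.00369), and 0 lower. That call was lost when any of the mutant libraries or sibling replicate 1 was left out, and 2 were called without sibling replicate 3.

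*ccng1*, which encodes cyclin G1, a known target of p53, had a ratio of 0.33 ± 0.10. Metazoa_SRP, a locus of 296 bases for the RNA of the signal recognition particle, measured 91.8, 99.6 and 117 CPM in siblings and 137, 127 and 127 CPM in mutants (ratio 0.34 ± 0.11). Without sibling replicate 2, 2 of these 6 genes stayed at a ratio of 0.3 or above. The 6 markers of dividing cells, *pcna*, *mki67*, *top2a*, *mcm5*, *ccnb1* and *cdk1*, summed to 345 to 377 CPM in siblings and 406 to 427 CPM in mutants without overlap. By edgeR 0 of them passed the threshold, 5 were higher at an unadjusted p under 0.05, and DESeq2 called 2 higher. Among 50 other mitotic genes 47 had a fold change above 0 and the median was 0.22. By edgeR 0 were called, 31 were higher and 0 lower at an unadjusted p under 0.05, and DESeq2 called 4 higher. The part of dividing cells in the chromatin and cycle members was not tested.

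Metabolism and transport, with 12 members, had a median ratio of 0.39. *slc43a2b*, a transporter of large neutral amino acids, measured 228, 200.5 and 221 CPM in siblings and 324, 334 and 341 CPM in mutants. The groups were 42.1% apart, close to the gap of *ctsla*, and the ratio was 0.62 ± 0.06. *ugdh*, whose enzyme makes UDP-glucuronate, the sugar donor of glucuronidation, measured 51.9, 54.9 and 53.6 CPM in siblings and 84.8, 73.2 and 73.4 CPM in mutants (ratio 0.52 ± 0.07). The siblings were close to each other, and *fdx1b*-/- replicate 1 stood above the other two mutants. *GLDC*, the glycine decarboxylase of the mitochondrial glycine cleavage system, measured 111, 109 and 113 CPM in siblings and 153, 150.3 and 166 CPM in mutants (ratio 0.49 ± 0.05). *grhprb*, a glyoxylate reductase, measured 132, 127 and 142 CPM in siblings and 183, 184 and 197 CPM in mutants (ratio 0.49 ± 0.06). Sibling replicates of *GLDC* differed little. It was among the 47 of the 77 members that met the rule with any 1 library left out, a count drawn from the values the rule used.

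The first enzyme of haem synthesis outside red cells, *alas1*, measured 107, 133 and 115 CPM in siblings and 168, 144 and 162 CPM in mutants (ratio 0.41 ± 0.11). Its highest sibling was replicate 2, and the groups were 7.96% apart. *tfr1b*, a transferrin receptor gene, had means of 71.5 ± 3.11 CPM in siblings and 94.0 ± 4.55 CPM in mutants (ratio 0.39 ± 0.05). Transferrin, the product of *tfa*, is the ligand of such receptors. Of 30 other genes of red cells and haem 22 had a fold change above 0, the median was 0.06, and edgeR called 1 higher, *hmbsa* (0.48, SE 0.08, adjusted p = 0.00755), and 0 lower, with that call lost on leaving out any library but sibling replicate 2. *pgrmc1*, a haem-binding membrane protein gene, had a ratio of 0.37 ± 0.09. The O-GlcNAc hydrolase *mgea5* was at 0.31 ± 0.08, the enamine deaminase *hrsp12* at 0.33 ± 0.13, the mitochondrial nucleotide carrier *slc25a36a* at 0.35 ± 0.04, and the short chain dehydrogenases *dhrs1* and *dhrs13l1* at 0.39 ± 0.08 and 0.33 ± 0.12. Without sibling replicate 2, 9 of the 12 stayed at 0.3 or above.

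Of 62 other genes of amino acid transport and breakdown, 36 had a fold change above 0, with a median of 0.04, and edgeR called 3 higher and 0 lower. They were *bhmt* (0.78, SE 0.10, adjusted p = 0.0018), *sardh* (0.50, SE 0.06, adjusted p = 0.00138) and *hal* (0.47, SE 0.07, adjusted p = 0.00616), enzymes of betaine, sarcosine and histidine breakdown. Without *fdx1b*-/- replicate 3 or sibling replicate 1, 0 genes of this list were called, against 1 without *fdx1b*-/- replicate 1 and 5 without sibling replicate 3. Among 56 other cytochromes P450 and reductases of drug metabolism, edgeR called 6 higher and 0 lower, and the median was 0.04. *cyp2aa4* (1.84, SE 0.21, adjusted p = 0.000679), *cyp2aa8* (2.103, SE 0.23, adjusted p = 0.000545) and *cyp2aa9* (1.70, SE 0.14, adjusted p = 8.73e-05) kept the call with any 1 library left out, and *cyp2aa3*, *cyp2x9* and *retsat* did not, so that 3 were called without *fdx1b*-/- replicate 1, *fdx1b*-/- replicate 3 or sibling replicate 1. All 6 lay under the abundance minimum in siblings, and all but *retsat* were also above the upper bound of the ratio. The list that holds *ugdh* was of targets of the oxidative stress regulator Nrf2 and left out the glutathione transferases. Of its 38 other genes, 29 were above 0, with a median of 0.12. By edgeR 0 were called, 15 were higher and 4 lower at an unadjusted p under 0.05, and DESeq2 called 1 higher.

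The last 13 members belong to no common process. *arrdc3b*, an alpha-arrestin, had the largest ratio among these, 0.53 ± 0.10, and measured 63.9, 52.4 and 57.2 CPM in siblings and 77.7, 83.2 and 89.5 CPM in mutants. *pmp22b*, a peripheral myelin protein gene that is also expressed in epithelia, measured 203, 173 and 207 CPM in siblings and 235, 245 and 239 CPM in mutants (ratio 0.30 ± 0.08). *pde6h*, the inhibitory subunit of the cone phosphodiesterase, measured 122, 107 and 129 CPM in siblings and 143, 158 and 167 CPM in mutants (ratio 0.39 ± 0.10). Of 51 other photoreceptor genes 26 had a fold change above 0, the median was 0.0059 and edgeR called 0, with 3 higher and 4 lower at an unadjusted p under 0.05 and 1 called in each direction by DESeq2. *mhc1zba*, a major histocompatibility class I gene, and *mvp*, the major vault protein gene, had ratios of 0.41 ± 0.11 and 0.33 ± 0.03. Of 34 other immune effector genes 20 had a fold change above 0, the median was 0.05, and edgeR called 2 lower, *cebpd* (-0.73, SE 0.07, adjusted p = 0.000246) and *hamp* (-0.92, SE 0.10, adjusted p = 0.000504), with any 1 library left out too. The stress-responsive *ndrg1a* was at 0.40 ± 0.07 and *elmod2*, which encodes an activator of ARF GTPases, at 0.35 ± 0.11. The remaining 6 were zgc:110843 (0.42 ± 0.09), si:dkeyp-73b11.8 (0.38 ± 0.08), *prr33* (0.36 ± 0.11), *ssuh2rs1* (0.31 ± 0.04), si:dkey-65b12.6 (0.30 ± 0.08) and ENSDARG00000083937 (0.32 ± 0.20).

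ENSDARG00000083937 was the member with the widest spread. It has 126 bases of exon and measured 65.3, 46.0 and 72.3 CPM in siblings and 72.5, 77.7 and 79.1 CPM in mutants. Sibling replicate 3 came within 0.261% of *fdx1b*-/- replicate 1, and sibling replicate 2 was far under the rest. Over the 77 members, the gap between the lowest mutant and the highest sibling had a median of 16.4% and ran from 0.0688% to 42.3%, with 6 members under 5% and 27 at 20% or more. The median coefficient of variation was 8.18% among siblings and 4.52% among mutants, and 5.64% and 3.40% for the other abundant genes. Both kinds of gene thus varied more among siblings than among mutants.

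Several members lie next to each other in the gene order of RefSeq's zebrafish table (assembly GRCz12tu), in which 74 members were found by name. *icn* and *icn2*, *krt92* and *krtt1c19e*, and *cfh* and *cfhl4* are direct neighbours among protein-coding genes. *apoeb* and *apoa2*, *myhz2* and *myhz1.3*, and *myhb* and *h1fx* have 2 such genes between them, and *tnni2a.4* and *prr33* have 1. The counting took uniquely mapped reads, and whether the strand was used is not given in the sources used here. Reads of 50 bases can still be misplaced among close copies, so the single values of the myosin heavy chain genes, the C3 genes and the loci named si:ch211-93f2.1 are less certain.

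The limits of the rule cut through similar genes. At the abundance minimum, *apom* (50.8 CPM in siblings), *prr33* (51.4 CPM) and *elmod2* (53.0 CPM) lay inside, while *c3a.6* (49.1 CPM, ratio 0.49), *mfi2* (48.0 CPM, ratio 0.32) and *sri* (47.9 CPM, ratio 0.35) lay outside. At the lower ratio, *myoz1b* (0.302), *pmp22b* (0.303) and si:dkey-65b12.6 (0.303) were in, and *dbi* (0.2996), *serpina1l* (0.296) and *pcxb* (0.290) were out. At the upper ratio the nearest members were *ctsla* (0.65), *pla2g12b* (0.64) and *slc43a2b* (0.62), and *tnnt3a* (0.73), *plgrkt* (0.74) and *pla2g15* (0.76) were beyond it. With each library left out in turn, 47 members met the rule 6 times of 6, 17 met it 5 times and 11 met it 4 times. *hexb* and *myoz1b* met it 3 times. The rule had used these same libraries, and leaving a library out could not make the groups of a member overlap. Only the abundance minimum and the ratio bounds could remove a member, so nothing is read from these counts.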

How the data were processed

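The deposited values were raw counts on exons, without normalization. Per the paper's methods, the authors sequenced ribosome-depleted total RNA as single-end reads of 50 bases, mapped them onto GRCz10 with STAR (2.4.0i in the submitters' processing notes, another version in the paper's text), and counted uniquely mapped reads for each Ensembl v84 gene with a custom Perl script. Intronic counts were not analysed here. Exon lengths in bases came from the same deposited table.

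CPM values were counts divided by the library total. The genotypes were compared in R 4.3.3 with edgeR 4.0.16 (TMM factors, filterByExpr, quasi-likelihood F test, Benjamini-Hochberg adjustment over 26544 tested genes, calls at adjusted p 0.01 or less with a log2 change of 0.25 or more in size). DESeq2 1.42.0 was an alternative, beside other scalings, filters, pseudocounts, abundance minimums, a replicate block and each library left out. The edgeR steps were tested on simulated data. Of 100 genes changed by log2 0.5 in size, 75 were called in the right direction, and of 100 changed by 1, all 100 were. Of the unchanged genes, 1 was called. The simulated counts followed the fitted trend of spread, without a spread of each gene's own or an outlying library. These shares therefore need not hold for the measured libraries. Smaller changes were not simulated. Totals of 18247332 to 49908095 counts make 3 counts equal to 0.0601 to 0.164 CPM, a floor for counting error only. The SE of a member's log2 ratio, given after ±, came from the spread of log2 CPM between replicates. The SE given with an edgeR fold change came from that fit, in which genes share information on their spread. These kinds of SE are not directly comparable.

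The members and gene lists were chosen with earlier results of these data known, and the groups by role were made after the members had been seen. Every member is named. Values for each library are given in each group for those highest in siblings or largest in ratio, up to 5, and some others; genes outside the rule are named where they passed the threshold and belong to a list that also holds members, where they are paralogs of members, or at a limit of the rule. Gene names came from the paper's supplementary tables (76 members) or the reference table (73), and 1 member had neither. Sequences were not used here.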

Additional observations from a re-analysis of the deposited data

How the results depend on the processing

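The median log2 ratio of the 77 genes ran from 0.34 to 0.44 with each library left out in turn. Under TMM scaling, DESeq2 size factors, pseudocounts of 0 and 5, the edgeR fold change and a replicate block it lay from 0.37 to 0.39. These moves were smaller than 0.068, the SD of the members' median between libraries, pooled over the genotypes. The rule picked the members by this ratio in these same libraries, which left its median little room to move. Nothing is read from that. The number of genes that met the rule was 77, 47 with a sibling minimum of 100 CPM, 149 with a minimum of 25 CPM, and 62 to 115 with each library left out. With a pseudocount of 5, 71 of the 77 met it. The edgeR test called 296 genes, of which 33 were members and 46 were other genes of the lists. The Wald test of DESeq2 called 885 genes, with 75 members and 147 other list genes. With each library left out in turn, edgeR called 109 to 622 genes, 5 to 51 members and 20 to 86 other list genes, with fewer samples in each fit. The other scalings and filters kept each of these counts within 1.5 times.

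Deviations of libraries with the same replicate number correlated at -0.14, -0.14 and 0.09, and those with different numbers at -0.16 to 0.22. These values do not settle whether libraries of the same number shared a clutch. With the number as a block, edgeR called 202 genes and 19 of the 77 members, and the cause of these differences was not tested.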
